A study of Homo sapiens with 10 samples.

Results

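NFE2L2, the gene of the transcription factor NRF2, its inhibitor KEAP1 and 7 antioxidant target genes (NQO1, HMOX1, GCLM, GCLC, TXNRD1, SRXN1 and OSGIN1) were followed in nascent and total RNA of 22RV1 cells. These 9 genes were taken by name as parts of the pathway, with earlier results of these data known. All 9 were found among the 31015 genes to which the deposited 3′ UTR intervals could be assigned. After the filter on low counts, 8 of the 9 were tested in nascent RNA and 9 in total RNA, because OSGIN1 had almost no labelled reads.

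22RV1 is an established human prostate cancer cell line, and 10 SLAM-seq libraries of it were analysed, 2 for each of 5 groups. The first group was left untreated as the control, and the others were exposed to a compound for 4 h. They received SRPIN340 at 20 μM, an inhibitor of the splicing kinase SRPK1; Endovion at 50 μM, another compound used in the study as an SRPK1 inhibitor; THZ531, an inhibitor of the transcription kinase CDK12; or both THZ531 and Endovion. The THZ531 dose is 100 nM in the study's methods and 150 nM in the description of the series. All groups received 4-thiouridine for the last 10 min, so that reads with a T>C conversion stand for RNA made in that time. No library without 4-thiouridine was analysed here, so the T>C reads that sequencing errors or variants add are not known. This bears most on genes with few conversions per 100 covered T in the control libraries. Among these were GCLC (0.0693 and 0.157), KEAP1 (0.0911 and 0.223), GCLM (0.107 and 0.161) and TXNRD1 (0.189 and 0.171). Levels are given in CPM, a gene's reads scaled to the size of the library, and in nascent CPM, its T>C reads scaled to all T>C reads of the library. The share of reads with a T>C conversion is called the labelled share below. The labels do not say whether the 2 libraries of a group came from separate cultures, so every p value measures only the spread between these libraries. The controls are described as untreated, so an effect of a solvent cannot be told apart from that of a compound. In such bulk libraries fewer cells of a kind and less RNA per cell cannot be told apart either.

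NRF2 is made continuously and is normally held in the cytoplasm by KEAP1, which presents it to a CUL3 ubiquitin ligase for degradation. Oxidants and electrophiles modify cysteines of KEAP1, NRF2 then escapes, enters the nucleus, pairs with a small MAF protein and binds antioxidant response elements near genes for glutathione synthesis, thioredoxin recycling, quinone reduction and heme breakdown. Because this switch works on the protein, neither the mRNA of NFE2L2 nor that of KEAP1 reports NRF2 activity directly, and the target mRNAs are the usual readout.

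The antioxidant response element has a well known core, TGACNNNGC, and the members that hold it close to the transcription start are shown here as the sequence through which NRF2 is known to act. The core was searched on both strands of RefSeq promoter windows of 300 bases (250 before and 50 after the start, GRCh38.p14). It was present in 4687 of 35116 windows, or 13.3%. Of the 8 members with a window, 2 held it, as did 17 of 62 other genes of the pathway, and HMOX1 was not in the table. The core is in capitals, with its flanks in lower case, in each sequence read in the direction in which the core matches.
GCLM, chr1:93909446-93909475, plus strand, core centred 30 bases before the start: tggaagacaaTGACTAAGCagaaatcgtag
TXNRD1, chr12:104215670-104215699, plus strand, core centred 95 bases before the start: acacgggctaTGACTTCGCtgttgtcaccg
TXNRD1, chr12:104215760-104215789, minus strand, core centred 4 bases before the start: ctgtgggaacTGACGGAGCcgaaggacgcc
A match of letters is not a bound site, and windows without these letters say nothing of NRF2.

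The libraries had 35517462 to 53592904 mapped reads and 1011597 to 1576113 T>C reads on genes. The overall labelled share was 5.63% to 5.7% in control cells and 5.04% to 5.63% in treated cells. Markers of prostate epithelium summed to 1560 to 1970 CPM, while the basal markers KRT5, KRT14 and TP63 together did not exceed 0.247. The 3 neuroendocrine markers summed to 20.8 to 25.7 CPM, nearly all from SYP (20.8 to 25.6). The 8 markers of fibroblasts, endothelium and leukocytes summed to 2.06 to 4.69, mostly COL1A1 (1.57 to 3.51), with CD3E, VWF and COL1A2 at 0 in all 10 libraries. The part of such cells in the results was not tested. The control libraries were not alike for every gene: total RNA was more than 1.5 times higher in replicate 1 than in replicate 2 for 13.5% of all genes tested, and NFE2L2 and TXNRD1 were among these.

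The members had more calls in total than in nascent RNA, as all genes tested did. With SRPIN340, Endovion, THZ531 and the combination 1.96%, 11.4%, 30.7% and 29% of all genes passed in total RNA. In nascent RNA it was 1.04%, 2.66%, 7.46% and 8.12%. TXNRD1 and GCLM were the members called in nascent RNA against control cells. All comparisons with control share the same 2 control libraries. How many of all genes lie outside both control libraries, as members do below, was not counted. The members were chosen with earlier results of these data known, so the shares of all genes beside their counts are descriptive. A change is counted here at a Benjamini-Hochberg adjusted p under 0.05 over all genes tested (edgeR quasi-likelihood test). In total RNA, SRPIN340 raised 1 of the 9 genes, when 1.82% of all 14689 genes tested rose. Endovion raised 3 and lowered 1, against 8.9% and 2.54% of all genes. THZ531 raised 5 and lowered 1, against 16.6% and 14.1%. THZ531 with Endovion raised 4 and lowered 1, against 16.6% and 12.4%. The median log2 fold change of the 9 genes was 0.66 with THZ531, where that of all genes was -0.0061, and it was -0.056 with SRPIN340, -0.057 with Endovion and 0.17 with the combination (all genes 0.033, 0.020 and -0.0021). In nascent RNA, none of the 8 genes tested passed with SRPIN340, where 1.04% of the 9946 genes tested did. Of the members 2 had an unadjusted p under 0.05, as had 1035 of the 9946 genes, and DESeq2 called 0 members. Endovion and THZ531 each raised 1 gene, against 2.04% and 3.86% of all genes, and the combination raised 2, against 4.61%.

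**Figure D1:**
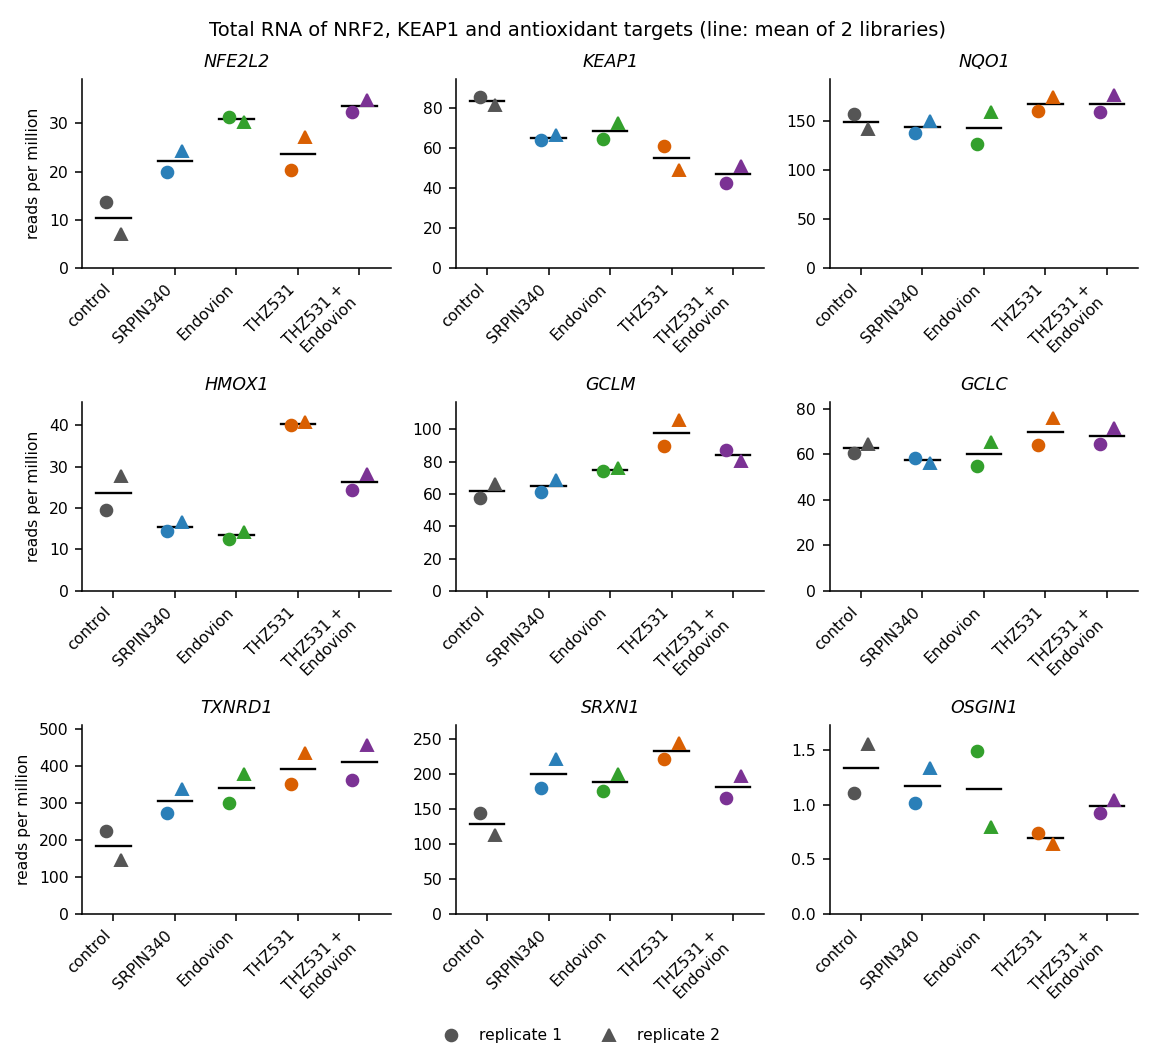
Total RNA of the 9 genes in CPM (vertical axes, linear from 0) in the 5 groups. Each symbol is a library (circle, replicate 1; triangle, replicate 2) and each line the mean of the 2 libraries. NFE2L2, TXNRD1 and SRXN1 lie above both control libraries in all 8 treated libraries, KEAP1 lies below them in all 8, and HMOX1 lies below with SRPIN340 or Endovion and above with THZ531. The share of all genes that lie in these ways was not counted.

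**Figure D2:**
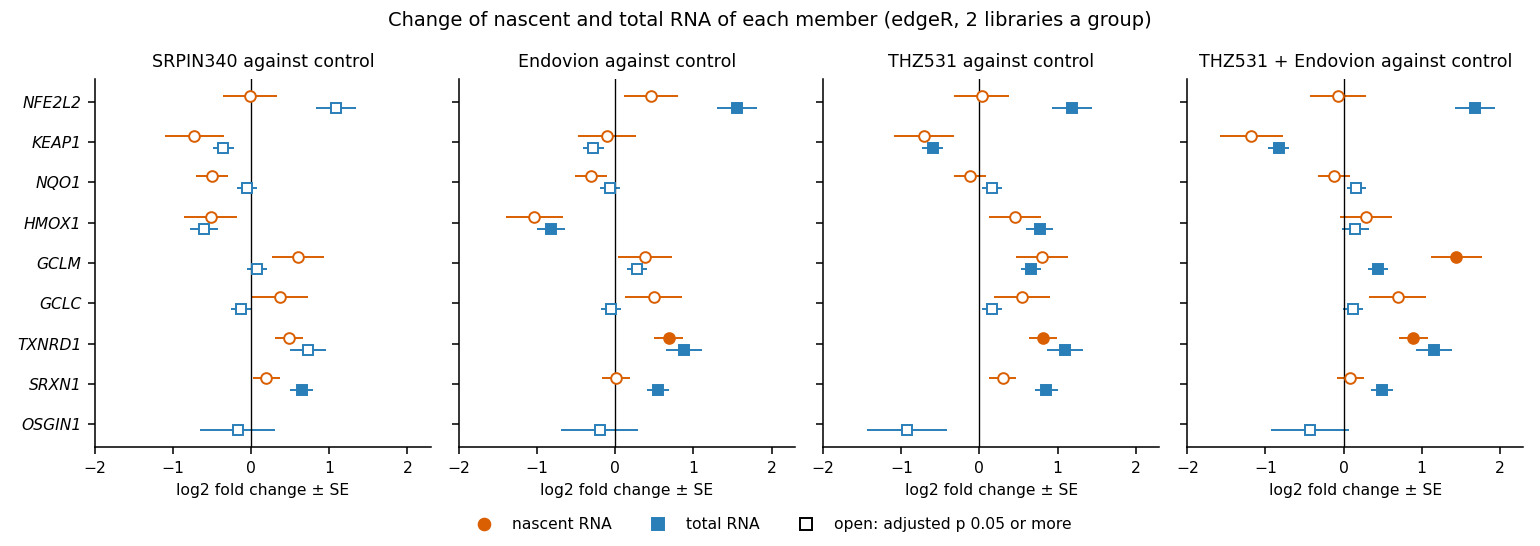
Log2 fold change against control cells with its standard error (horizontal axes) for each gene, in nascent RNA (circles) and total RNA (squares), 1 panel per treatment. Filled symbols have an adjusted p under 0.05. For NFE2L2 the total RNA stands to the right of the nascent RNA in every panel, and only TXNRD1 and GCLM have filled circles.

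NFE2L2 encodes NRF2 itself. Its total RNA was 13.7 and 7.03 CPM in the control libraries, 19.9 and 24.3 with SRPIN340, 31.3 and 30.3 with Endovion, 20.3 and 27.2 with THZ531, and 32.3 and 34.95 with the combination. All 8 treated libraries were above both control libraries, and the control libraries themselves differed 1.94-fold. Endovion raised it 2.96-fold (log2 1.56 ± 0.26 SE, adjusted p = 0.0045), THZ531 2.27-fold (log2 1.18 ± 0.26, adjusted p = 0.0048) and the combination 3.22-fold (log2 1.69 ± 0.26, adjusted p = 0.00065). With SRPIN340 the log2 fold change was 1.09 ± 0.26 at an adjusted p of 0.052, just short of the threshold. The Endovion and combination calls held in all 18 alternative analyses, and the THZ531 call in 17 of 18. Without control replicate 2, the lower of the control libraries, the log2 fold changes were 1.12 with Endovion, 0.75 with THZ531 and 1.25 with the combination, and all 3 passed. The THZ531 call was lost without THZ531 replicate 2 (log2 0.91, adjusted p = 0.051).

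Nascent RNA of NFE2L2 gave no call. It was 45.1 and 29.7 nascent CPM in control cells, 31.1 and 43.2 with SRPIN340, 54.5 and 49.1 with Endovion, 36.5 and 40.7 with THZ531, and 29.6 and 42.3 with the combination. The groups overlapped except for Endovion, and no change passed the test. The log2 fold changes were -0.016 ± 0.35 with SRPIN340, 0.46 ± 0.35 with Endovion, 0.029 ± 0.35 with THZ531 and -0.072 ± 0.36 with the combination. There were 35 to 71 T>C reads per library, and the 95% interval of the combination ran from -0.995 to 0.85. Smaller changes could have been missed with this read number and this spread between libraries.

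The labelled share of NFE2L2 was lower in all 8 treated libraries than in both control libraries. In control cells 70 of 385 and 37 of 167 reads were labelled, 18.2% (95% exact binomial interval 14.5% to 22.4%) and 22.2% (16.1% to 29.2%). Over both control libraries this share, 19.4%, stood at the 96.4th percentile of all genes tested, whose median was 5.19%. The share was 8.63% and 9.01% with SRPIN340, 8.67% and 8.32% with Endovion, and 10.2% and 7.89% with THZ531. With the combination it was 4.76% (3.33% to 6.55%) and 6.44% (4.7% to 8.57%), the lowest values of the series. These intervals cover counting error only. Relative to all genes, the ratio of labelled to unlabelled reads dropped by 1.93 ± 0.39 on the log2 scale with the combination (adjusted p = 0.0068). The differences with SRPIN340, Endovion and THZ531 were -1.26, -1.25 and -1.24 with adjusted p of 0.24, 0.18 and 0.19, and did not pass. Without control replicate 2, the log2 difference of the combination was -1.75 at an adjusted p of 0.080, and without replicate 1 or 2 of the combination it was -1.73 or -2.16 (adjusted p = 0.15 and 0.061). Of the members, NFE2L2 and GCLM were the 2 whose share passed with the combination, 1 down and 1 up, where 0.774% and 0.241% of all genes passed. No member's share passed with SRPIN340, Endovion or THZ531, where 0.161%, 0.442% and 0.342% of all genes did. At an unadjusted p under 0.05 were 3, 2 and 2 members, beside 810, 927 and 1003 of the 9946 genes tested. DESeq2 was not run on the share.

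**Figure D3:**
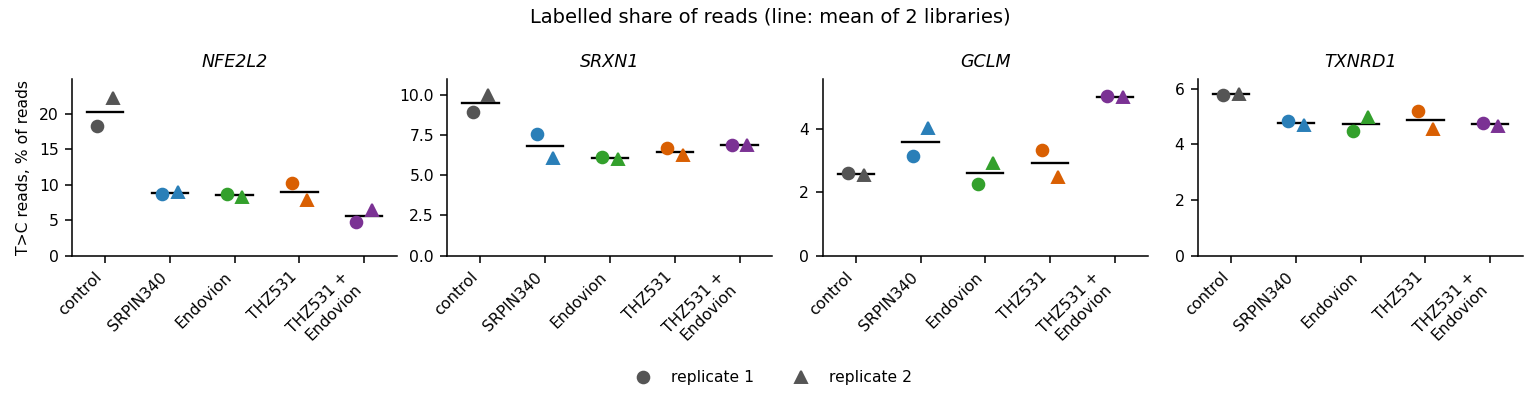
Labelled share, the percentage of a gene's reads with a T>C conversion (vertical axes, linear from 0), for 4 genes in the 5 groups. Symbols are libraries and lines are means of 2. The share of NFE2L2 is 18.2% and 22.2% in control cells and 4.76% to 10.2% in treated cells, while that of GCLM is highest with THZ531 and Endovion together.

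About 97.4% of the NFE2L2 reads lay in 1 interval of its 3′ UTR (chromosome 2, 177230305 to 177230784, minus strand, hg38), and this interval alone gave the same calls. A further interval with 2.58% of the reads held 11 of the 46 T>C reads of SRPIN340 replicate 1, and 0 to 5 in the other libraries.

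KEAP1, the adaptor that holds and presents NRF2 for degradation, went the other way in total RNA. It had 85.6 and 81.6 CPM in control cells, 64.0 and 66.5 with SRPIN340, 64.9 and 72.5 with Endovion, 61.0 and 49.3 with THZ531, and 42.8 and 51.2 with the combination. Every treated library was below both control libraries. THZ531 lowered it 1.51-fold (log2 -0.60 ± 0.14, adjusted p = 0.0041) and the combination 1.78-fold (log2 -0.83 ± 0.14, adjusted p = 0.00049). With SRPIN340 and Endovion the log2 fold changes were -0.36 and -0.28 with adjusted p of 0.17 and 0.19. The combination was also lower than Endovion alone (log2 -0.55 ± 0.14, adjusted p = 0.021), a call lost without Endovion replicate 1 (adjusted p = 0.064), Endovion replicate 2 (0.17) or combination replicate 1 (0.20). Nascent KEAP1 RNA was 30.9 and 65.0 in control cells and 22.9 and 18.7 with the combination, a log2 fold change of -1.18 ± 0.40 at an adjusted p of 0.055. Over 19 alternatives it ran from -1.62 to -0.56 and was called in 3, by scaling to all reads, without control replicate 1 and by the study's threshold. The 2 control libraries, with 48 and 81 T>C reads, differed widely here.

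**Figure D4:**
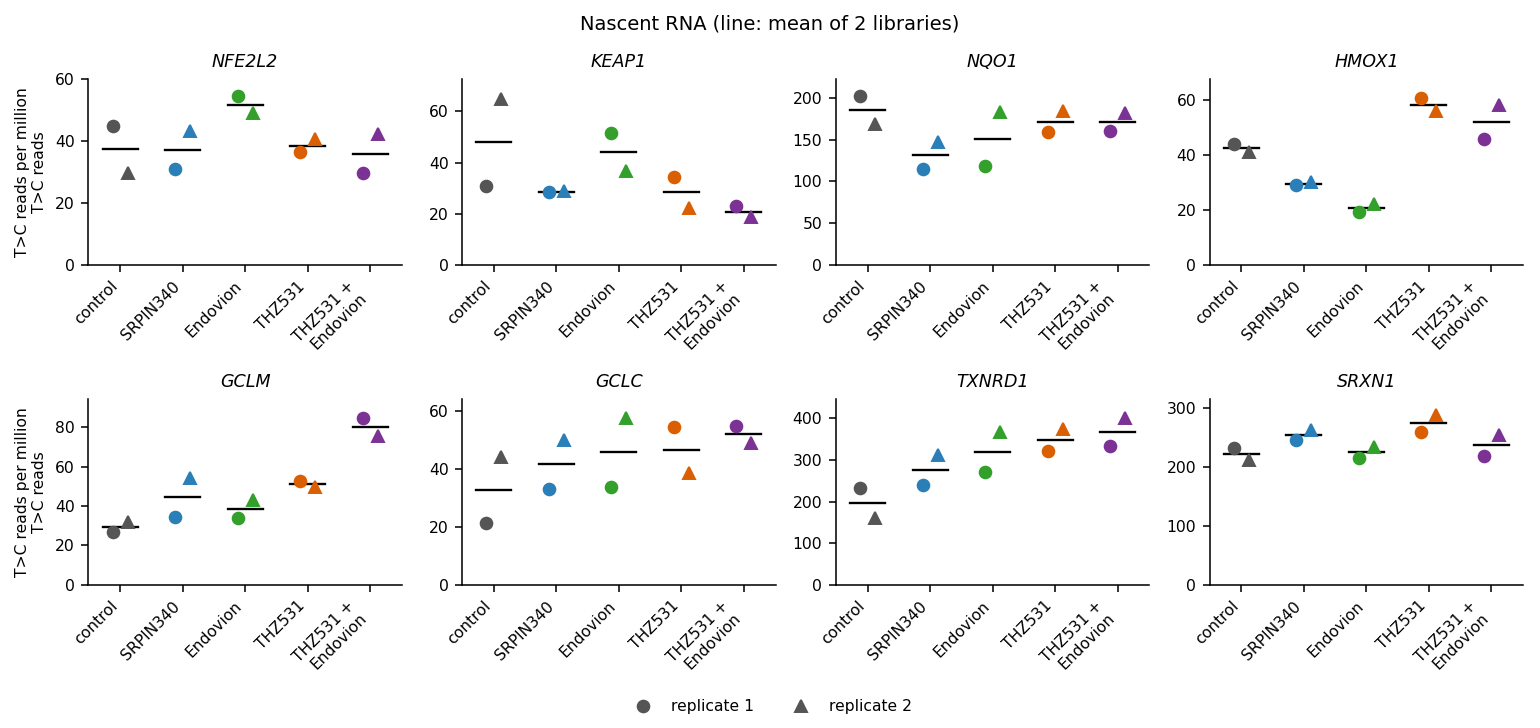
Nascent RNA of the 8 genes tested, in nascent CPM (vertical axes, linear from 0). Symbols are libraries and lines are means of 2. TXNRD1 and GCLM lie above both control libraries in all 8 treated libraries, HMOX1 is lowest with Endovion, and the NFE2L2 libraries of SRPIN340, THZ531 and the combination overlap the controls.

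TXNRD1 encodes cytosolic thioredoxin reductase, the selenoprotein that passes electrons from NADPH to thioredoxin. It was the member with most calls in nascent RNA. Nascent RNA was 233.7 and 160.5 nascent CPM in control cells, 240.8 and 313.0 with SRPIN340, 270.9 and 366.5 with Endovion, 322.8 and 375.1 with THZ531, and 334.6 and 402.2 with the combination. All 8 treated libraries were above both control libraries. The rise was 1.61-fold with Endovion (log2 0.68 ± 0.18, adjusted p = 0.024), 1.76-fold with THZ531 (log2 0.82 ± 0.18, adjusted p = 0.0020) and 1.86-fold with the combination (log2 0.90 ± 0.18, adjusted p = 0.00061). With SRPIN340 the log2 fold change was 0.49 ± 0.18 at an adjusted p of 0.25.

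Total TXNRD1 RNA moved with it, from 224.4 and 144.9 CPM in control cells to 274.6 and 338.3 with SRPIN340, 301.6 and 378.6 with Endovion, 353.2 and 434.6 with THZ531, and 362.9 and 458.9 with the combination. Again no treated library overlapped the controls. It rose 1.84-fold with Endovion (adjusted p = 0.044), 2.13-fold with THZ531 (adjusted p = 0.0083) and 2.22-fold with the combination (adjusted p = 0.0069). The labelled share of TXNRD1 was 5.77% and 5.81% in control cells and 4.48% to 5.18% in the treated libraries, and no difference passed the test. What part of its T>C reads does not come from labelling was not tested. The TXNRD1 calls depended on single libraries, control replicate 2 first. Without it the nascent log2 fold changes were 0.45, 0.58 and 0.66 and none passed (adjusted p = 0.44, 0.12 and 0.062), and in total RNA the Endovion call was lost (log2 0.55, adjusted p = 0.19) while those of THZ531 and the combination were kept. In nascent RNA the Endovion call was also lost without Endovion replicate 2 (log2 0.46, adjusted p = 0.40) and the THZ531 call without THZ531 replicate 2 (log2 0.71, adjusted p = 0.071). In total RNA the Endovion call was lost without either Endovion library or either combination library (adjusted p = 0.057 to 0.23), and the THZ531 call without THZ531 replicate 2 (adjusted p = 0.060).

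SRXN1 encodes sulfiredoxin, which repairs overoxidised peroxiredoxins, and was the only member whose total RNA passed in all 4 treatments. Total RNA was 144.3 and 111.8 CPM in control cells, 179.6 and 220.8 with SRPIN340, 175.2 and 200 with Endovion, 220.9 and 243.3 with THZ531, and 165.0 and 196.2 with the combination. The control libraries were the lowest of the series. The rise was 1.56-fold with SRPIN340 (log2 0.64 ± 0.14, adjusted p = 0.038), 1.46-fold with Endovion (log2 0.55 ± 0.14, adjusted p = 0.024), 1.81-fold with THZ531 (log2 0.86 ± 0.14, adjusted p = 0.00054) and 1.41-fold with the combination (log2 0.50 ± 0.14, adjusted p = 0.017). Without control replicate 2, the THZ531 call was kept and the others were lost (log2 0.43, 0.33 and 0.28 with SRPIN340, Endovion and the combination, adjusted p = 0.44, 0.30 and 0.23). The SRPIN340 call was also lost without SRPIN340 replicate 2 (adjusted p = 0.39), either Endovion library or combination replicate 1 (0.056 to 0.058), the Endovion call without either Endovion library (0.062 and 0.16), and the combination call without combination replicate 2 (0.15).

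Nascent SRXN1 RNA was 233.0 and 212.7 nascent CPM in control cells and 214.9 to 288.7 in the treated libraries. Its log2 fold changes lay between 0.010 and 0.30, and none passed. The labelled share was 8.94% and 9.97% in control cells and 6.03% to 7.58% in the treated libraries, below the controls in all 8, though no difference passed (log2 -0.35 to -0.52, adjusted p = 0.14 to 0.35). The SRXN1 interval overlaps, on the same strand, one of the gene ENSG00000270299, so reads may be shared between them.

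GCLM encodes the modifier subunit of glutamate cysteine ligase, the first enzyme of glutathione synthesis, and showed the largest nascent change of the members. Nascent RNA was 27.0 and 32.1 nascent CPM in control cells, 34.5 and 54.5 with SRPIN340, 33.8 and 43.3 with Endovion, 52.7 and 49.8 with THZ531, and 84.7 and 75.7 with the combination. All treated libraries were above both controls, and the combination stood apart from every other library. It raised GCLM 2.72-fold (log2 1.44 ± 0.33, adjusted p = 0.0022), a call that held in all 19 alternatives. The values with THZ531 (log2 0.80 ± 0.33, adjusted p = 0.14), SRPIN340 (0.60 ± 0.33, adjusted p = 0.56) and Endovion (0.38 ± 0.34, adjusted p = 0.69) did not pass. The combination was not called against THZ531 alone (log2 0.64 ± 0.32, adjusted p = 0.62) nor against Endovion alone (log2 1.06 ± 0.33, adjusted p = 0.096).

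Total GCLM RNA was 57.3 and 66.3 CPM in control cells, 61.0 and 68.7 with SRPIN340, 74.3 and 75.9 with Endovion, 89.5 and 105.9 with THZ531, and 87.5 and 80.5 with the combination. THZ531 raised it 1.58-fold (log2 0.66 ± 0.13, adjusted p = 0.0015) and the combination 1.36-fold (log2 0.44 ± 0.13, adjusted p = 0.017), a call lost without control replicate 1 (adjusted p = 0.097) or combination replicate 1 (0.19). The labelled share was 2.61% and 2.54% in control cells, 3.13% and 4.02% with SRPIN340, 2.27% and 2.93% with Endovion, 3.34% and 2.48% with THZ531, and 5.015% and 5.003% with the combination. Both combination libraries were above all others. Relative to all genes the ratio of labelled to unlabelled reads rose 2.20-fold with the combination (log2 1.14 ± 0.29, adjusted p = 0.037), where that of NFE2L2 fell. This call was lost in 8 of 16 alternatives, 7 of which leave out 1 library (control 1 or 2, THZ531 1 or 2, SRPIN340 1 or combination 1 or 2, adjusted p = 0.051 to 0.28), while its size was 1.04 to 1.15 in all 16.

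GCLC encodes the catalytic subunit of the same enzyme, and no change of it passed in any comparison. Total RNA was 60.4 and 64.6 CPM in control cells and 54.9 to 75.8 in the treated libraries. Nascent RNA was 21.2 and 44.1 nascent CPM in control cells and 33.2 to 57.7 in the treated libraries, with log2 fold changes of 0.37, 0.49, 0.55 and 0.69 for SRPIN340, Endovion, THZ531 and the combination (adjusted p = 0.26 to 0.78). The control libraries differed about as much as the groups did.

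NQO1, the quinone reductase that serves most often as a marker of NRF2 activity, was likewise without a call. Total RNA was 157.5 and 141.7 CPM in control cells and 126.4 to 176.4 in the treated libraries, with log2 fold changes of -0.067 to 0.17. Nascent RNA was 202.1 and 169.3 in control cells, 115.0 and 147.7 with SRPIN340, 118.9 and 182.8 with Endovion, 159.5 and 184.0 with THZ531, and 160.9 and 181.9 with the combination. SRPIN340 gave the largest difference, a log2 fold change of -0.50 ± 0.20 at an adjusted p of 0.31. An interval of the gene ENSG00000261602 overlaps that of NQO1 on the opposite strand.

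HMOX1 encodes heme oxygenase 1, which breaks down heme and is induced by NRF2 and by other stress pathways. In total RNA it was the only member called down with 1 compound and up with another. Total RNA was 19.6 and 27.8 CPM in control cells, 14.4 and 16.7 with SRPIN340, 12.5 and 14.3 with Endovion, 40.0 and 40.9 with THZ531, and 24.4 and 28.3 with the combination. SRPIN340 and Endovion libraries were below both controls, THZ531 libraries were above both, and the combination overlapped them. Endovion lowered HMOX1 1.77-fold (log2 -0.82 ± 0.18, adjusted p = 0.010), THZ531 raised it 1.71-fold (log2 0.77 ± 0.18, adjusted p = 0.0039), and SRPIN340 gave a log2 fold change of -0.61 ± 0.18 at an adjusted p of 0.083. The combination was 1.97-fold above Endovion alone (log2 0.98 ± 0.18, adjusted p = 0.0031) and had a log2 difference of -0.62 ± 0.18 from THZ531 alone (adjusted p = 0.13). Leaving out Endovion replicate 1 ended the Endovion call (adjusted p = 0.11) and that of the combination against Endovion (adjusted p = 0.060), and leaving out control replicate 2 ended the Endovion call (adjusted p = 0.12), while the direction was kept.

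Nascent HMOX1 RNA followed the same order. It was 43.8 and 40.9 nascent CPM in control cells, 29.1 and 30.1 with SRPIN340, 19.2 and 22.1 with Endovion, 60.5 and 55.9 with THZ531, and 45.7 and 58.0 with the combination. Both SRPIN340 and both Endovion libraries were below the controls and all THZ531 and combination libraries above them, with 23 to 93 T>C reads behind a value. Endovion gave a log2 fold change of -1.04 ± 0.37 (adjusted p = 0.13) and THZ531 one of 0.46 ± 0.33 (adjusted p = 0.46), neither of which passed. The combination was above Endovion alone (log2 1.33 ± 0.37) at an adjusted p that rounds to 0.05 and lies just under the threshold, and 12 of 19 alternatives put it on the other side, 8 of them the omission of a THZ531, SRPIN340, Endovion or combination library (adjusted p = 0.059 to 0.36). The labelled share of HMOX1 was 12.4% and 7.72% in control cells and 7.21% to 11.2% in the treated libraries, so the groups overlapped.

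OSGIN1, an oxidative stress induced growth inhibitor, was close to the limit of detection. It had 12 to 42 reads per library, and 1 of its 265 reads in all 10 libraries was labelled (0.377%, 95% exact binomial interval 0.00955% to 2.08%). Total RNA was 0.643 to 1.56 CPM, with the lowest pair, 0.737 and 0.643, under THZ531, where the log2 fold change was -0.93 ± 0.51 (adjusted p = 0.19).

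With a stricter rule, an adjusted p under 0.05 and a rise of at least 1 on the log2 scale in total RNA, NFE2L2 remained with Endovion, and NFE2L2 and TXNRD1 with THZ531 and with the combination. These rises were shared by 3.42%, 5.67% and 6.1% of all genes tested.

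The remaining comparisons ask how the compounds act on each other and how the SRPK1 inhibitors compare. Adding THZ531 to Endovion raised HMOX1 and lowered KEAP1 in total RNA, as given above, when 2.29% of all genes rose and 5.93% fell, and raised HMOX1 alone in nascent RNA, when 0.452% rose. When Endovion was added to THZ531, no member passed in nascent or total RNA by edgeR, where 0.322% and 0.511% of all genes did. At an unadjusted p under 0.05 were 1 and 2 members, beside 777 of 9946 and 1620 of 14689 genes tested. DESeq2 called 0 and 1 members. The DESeq2 call was HMOX1, which was lower in both combination libraries than in both THZ531 libraries. Between Endovion and SRPIN340 no member passed in either measure (edgeR; 0 at an unadjusted p under 0.05, and 0 by DESeq2), as for nearly all genes (0.0603% and 0.034% passed). The members' log2 differences in total RNA, Endovion minus SRPIN340, ran from -0.22 for HMOX1 (95% interval -0.68 to 0.25) to 0.48 for NFE2L2 (-0.16 to 1.11). The intervals use the 5 residual degrees of freedom of the fit, fewer than the test uses, so they are wider than the p values imply.

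Whether Endovion acted differently with and without THZ531 was tested as an interaction. No member passed in nascent or in total RNA, when 0.302% and 0.00681% of all genes did. At an unadjusted p under 0.05 were 1 member in nascent and 4 in total RNA, beside 766 of 9946 and 1904 of 14689 genes tested. In total RNA the 4 were SRXN1 (log2 -0.91 ± 0.20, adjusted p = 0.23), NFE2L2 (-1.06 ± 0.35, adjusted p = 0.28), GCLM (-0.50 ± 0.18, adjusted p = 0.29) and TXNRD1 (-0.82 ± 0.32, adjusted p = 0.35). DESeq2 called SRXN1 in total RNA and no member in nascent RNA. A negative value means that the combination lay below the sum of the separate log2 changes.

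Apart from the members, 63 genes of the pathway were found in the files, 47 of which were tested in nascent RNA and 55 in total RNA. They too were chosen with earlier results of these data known. In total RNA 3 of the 55 rose with SRPIN340 and none fell, 10 rose with Endovion and none fell, 12 rose and 4 fell with THZ531, and 13 rose and 2 fell with the combination. The shares of all genes were 1.82%, 8.9%, 16.6% and 16.6% for a rise, and 14.1% and 12.4% for a fall with THZ531 and the combination. In nascent RNA 2 rose with SRPIN340, 1 rose and 1 fell with Endovion, 5 rose with THZ531, and 4 rose and 1 fell with the combination, when 1.04%, 2.66%, 7.46% and 8.12% of all genes passed in either direction. The choice of control libraries weighed on such counts. Without control replicate 1, a larger share of all genes passed with SRPIN340 and Endovion, in both measures. With THZ531 and the combination the share was then smaller. Control replicate 2 weighed on the counts of pathway genes. Without it, 1, 1, 8 and 10 of the genes passed in total RNA and 1, 1, 1 and 3 in nascent RNA, in the order of the treatments above. The share of all genes that passed fell as well, to 0.0586%, 1.46%, 16.7% and 14.4% in total RNA and to 0.113%, 0.839%, 3.67% and 3.2% in nascent RNA.

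The calls in total RNA were also counted by role, with the members included and beside the same shares of all genes. Of 15 regulators 2, 6, 7 and 8 rose with SRPIN340, Endovion, THZ531 and the combination, and KEAP1 fell with THZ531 and the combination. Of 12 glutathione genes 1, 3, 6 and 6 rose, and of 5 thioredoxin genes 1, 2, 2 and 2. Of 11 genes of quinone and carbonyl detoxification none rose with any treatment, and 1 fell with THZ531 and 1 with the combination. Of 8 heme and iron genes only HMOX1 passed, and of 7 genes of export and other targets 1 rose with Endovion while 3 fell with THZ531 and 1 with the combination. Of 6 genes of NADPH supply, IDH1 rose with Endovion, THZ531 and the combination.

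SLC7A11, the cystine transporter that feeds glutathione synthesis, passed in both measures with all 4 treatments. Its nascent RNA was 97.8 and 110.8 nascent CPM in control cells, 234.7 and 266.0 with SRPIN340, 310.0 and 279.9 with Endovion, 154.9 and 160.6 with THZ531, and 278.7 and 286.2 with the combination. All treated libraries were above both controls. The log2 fold change was 1.503 ± 0.19 with Endovion (adjusted p = 1.02e-07) and 0.60 ± 0.19 with THZ531 (adjusted p = 0.038). Of the pathway genes other than members, it was the 1 still called with SRPIN340 and with Endovion without control replicate 2, in both measures.

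MAFG, a small MAF protein that pairs with NRF2, had total RNA of 86.9 and 74.2 CPM in control cells and 146.5 to 219.7 in the treated libraries. It passed in total RNA with all 4 treatments (log2 1.02 to 1.36), while in nascent RNA it passed with THZ531 (log2 0.67 ± 0.18) and the combination (log2 0.75 ± 0.18). BACH1, a repressor that competes for the same elements, rose in total RNA with THZ531 (log2 1.88 ± 0.26), the combination (log2 1.69 ± 0.26) and Endovion (log2 0.96 ± 0.26), and MAFF with the same 3 (log2 1.14, 1.91 and 1.06). SYVN1, a ubiquitin ligase of the ER membrane, rose in total RNA with SRPIN340, Endovion and the combination (log2 0.95, 0.87 and 0.75). In nascent RNA the glutathione reductase GSR rose with SRPIN340, THZ531 and the combination (log2 0.68, 0.77 and 0.87), the membrane glutathione transferase MGST1 with THZ531 and the combination (log2 0.94 and 1.255), and IDH1, a source of cytosolic NADPH, with THZ531 (log2 0.77). The quinone reductase NQO2 fell in nascent RNA with Endovion (log2 -1.255 ± 0.34) and the export pump ABCC2 with the combination (log2 -1.78 ± 0.46). The calls named here with SRPIN340 or Endovion were not kept without control replicate 2, since only SLC7A11 kept its calls. In nascent RNA most calls with THZ531 and some with the combination were lost in the same way, by the counts above. In total RNA fewer genes passed with these treatments as well. Which of the genes lost a call with THZ531 or the combination is not given here. The ratio of control replicate 1 to 2 in total RNA was 1.69 for GSR, 1.64 for MAFF, 1.55 for SYVN1 and 1.49 for MGST1. It was 1.44 for IDH1, 1.17 for MAFG, 1.11 for NQO2, 1.01 for BACH1 and 0.883 for ABCC2. GSTA4, a glutathione transferase, was called up in total RNA with THZ531 and the combination, but its counts were 2 and 1 in control cells against 15 and 121 and against 97 and 51, so replicates of a treatment differed widely and its fitted fold change is not given.

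The genes whose nascent pattern was most like that of the called members were sought among 6796 genes with a mean of at least 20 T>C reads, over the 10 libraries. For TXNRD1 these were ZNF726, SLC25A30 and ARF4 (Pearson r = 0.962, 0.962 and 0.961), and for GCLM they were UBE2N, ENSG00000260772 and HDLBP (r = 0.941, 0.932 and 0.921). The libraries share treatments and controls, so these values describe likeness of pattern in this series.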

How the data were processed

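The authors made 3′ end libraries of alkylated RNA from 22RV1 cells, sequenced them as single-end reads of 101 bases, and ran SLAM-DUNK to find T>C conversions. The values they deposited are raw counts, of all reads and of T>C reads, for every 3′ UTR interval in hg38. The authors' own conversion rates and scaled values were not used. The version and settings of SLAM-DUNK, the masking of variants and the use of molecular identifiers are not given in the sources used here. The submitters' processing notes name Bowtie2 2.3.4.1, SAMtools 1.6 and DESeq2 1.38.2. Each library lists 104653 intervals of 75026 transcripts. Of these intervals, 96427 lay on main chromosomes and 92826 matched GENCODE v44, and 3.57% of T>C reads fell on intervals that did not match. Where intervals of 1 gene overlapped, that with the highest read number stayed, because summing them all would count 48.8% of T>C reads again. What stayed was added up for each gene. The T content of 13 of 13 member intervals equalled that of hg38.

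Nascent RNA (T>C reads) and total RNA (all reads) were each fitted once over the 10 libraries in R 4.3.3 using edgeR 4.0.16, by its quasi-likelihood method in robust form after filterByExpr and TMM scaling. The p values were adjusted by Benjamini-Hochberg over all genes tested. Levels in CPM use the TMM library sizes, those of nascent RNA from T>C reads alone. For the labelled share, the term of interest was treatment by read class, blocked by library and scaled inside each class, which removes a shift common to all genes. The scripts were tested on simulated counts. Replicates differed by more than sampling noise (chi-square per degree of freedom 3.54 to 4.9), so none was counted as a copy.

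The members, the pathway list of 73 genes and the marker lists were chosen with earlier results of these data known. The text names every member, for each comparison with control up to 5 other pathway genes with the largest change among those called, and for each member called in nascent RNA the 3 genes most like it. Cells given SRPIN340 with THZ531 were not analysed here. Alternatives were the plain sum, the top interval alone, DESeq2 1.42.0, no filter, scaling nascent RNA by all reads, fits of only the groups compared, a replicate block, 2 other call rules and the omission of each library. Counts of other pathway genes and of all genes without each control library were added after seeing the data.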

Additional observations from a re-analysis of the deposited data

Results flagged for a closer look

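For SRXN1 and GCLM, the total RNA of the Endovion libraries lay above the controls, while that of the combination libraries lay below THZ531 alone. Of these differences only SRXN1 with Endovion against control passed (adjusted p = 0.024). GCLM with Endovion had log2 0.28 (adjusted p = 0.17), and the combination against THZ531 had log2 -0.36 for SRXN1 (0.34) and -0.22 for GCLM (0.58). Both Endovion libraries of SRXN1 were above both control libraries (175.2 and 200 against 144.3 and 111.8 CPM), and both combination libraries were below both THZ531 libraries (165.0 and 196.2 against 220.9 and 243.3). The interaction was -0.911 on the log2 scale (SE 0.202, edgeR adjusted p = 0.228), so the difference did not pass the test after adjustment. Without filtering low counts, with DESeq2, without control replicate 1 and without THZ531 replicate 1 it did pass. For GCLM the Endovion libraries had 74.3 and 75.9 CPM against 57.3 and 66.3, and the combination 87.5 and 80.5 against 89.5 and 105.9 with THZ531. Its interaction was -0.499 (SE 0.182, adjusted p = 0.294) and passed in none of the alternatives.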

How the results depend on the processing

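Of 451 recomputations of a called member change, 355 kept the call, 96 lost it and 0 turned direction. Of 358 recomputed counts of members called, 282 stayed within 1.5 times, but a like count can hold different genes. By the study's threshold (unadjusted p and a log2 limit of 1) the 1 member in nascent RNA with Endovion was HMOX1, down, in place of TXNRD1, the 2 with the combination were GCLM, up, and KEAP1, down, and the 1 in total RNA with SRPIN340 was NFE2L2 in place of SRXN1. Scaling by all reads and leaving out control replicate 1 added KEAP1, down, to the combination in nascent RNA. The counts that moved further follow, and the cause was not tested where the rule itself does not give it. In nascent RNA, the plain sum of overlapping intervals gave 0 members with Endovion, 0 with THZ531, 1 with the combination and 0 for the combination against Endovion. DESeq2 and the fit of only the groups compared gave 0 with Endovion and 0 for the combination against Endovion, scaling by all reads gave 0 with Endovion, and no filter gave 0 for the combination against Endovion. An added log2 limit of 1 left 0, 0 and 1 members with Endovion, THZ531 and the combination, and the study's threshold left 0 with THZ531 and gave 3 for the combination against Endovion. In total RNA, SRPIN340 gave 0 members by the plain sum, the groups compared or the log2 limit, and 4 by DESeq2 or without filter. The study's threshold and the log2 limit each left 1 with Endovion, 2 with THZ531, 2 with the combination and 0 for the combination against Endovion. The combination against THZ531 gave 1 by DESeq2 and 1 without filter, and the interaction gave 1, 3 and 1 by DESeq2, without filter and by the study's threshold. For the labelled share, the study's threshold gave 1 member with each of SRPIN340, Endovion and THZ531, no filter gave 1 with THZ531, and the plain sum gave 1 with the combination.

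Leaving out 1 library at a time gave 0 to 1 members with SRPIN340, 0 to 1 with Endovion, 0 to 1 with THZ531, 1 to 3 with the combination and 0 to 1 for the combination against Endovion in nascent RNA. In total RNA it gave 0 to 4 with SRPIN340, 1 to 4 with Endovion, 4 to 6 with THZ531, 0 to 2 for the combination against Endovion and 0 to 3 for the interaction, and for the labelled share 0 to 2 with the combination.

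Deviations of samples with the same replicate number correlated at -0.0713 to 0.062 in nascent and -0.151 to 0.198 in total RNA. Counting noise weakens such correlations, so they do not settle whether replicate numbers pair the samples. With the replicate block, 0 members instead of 1 passed with SRPIN340 in total RNA (SRXN1, log2 0.633, adjusted p = 0.0645), TXNRD1 with Endovion gave log2 0.859 at an adjusted p of 0.0664, and no other called member change was lost. With 19 to 100 T>C reads behind each value of HMOX1, GCLM, GCLC, KEAP1 and NFE2L2, depth limits their nascent comparisons.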
